A study of Mus musculus with 10 samples.

Results

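The Wnt pathway targets and stem cell genes described here are 34 genes, taken by symbol from a list, out of 23668 named genes on the array. Each had 1 probe set, a group of array probes summarised to 1 value and identified by the number of its gene. The platform annotation named 33 of them, and Ephb2 was matched by its gene number in the RefSeq gene table. Total RNA of colon tumours was profiled in 10 samples, of which 5 are Ucp2+/+ (WT) and 5 Ucp2-/- (KO), all on the C57BL6/J background. All animals went through the AOM/DSS protocol, a course of the carcinogen azoxymethane and the colon irritant dextran sodium sulphate, and were killed at week 15 of it. Ucp2 encodes a carrier of the inner mitochondrial membrane and the labels do not describe the deleted allele. WT samples carry the numbers 1 to 5 and KO samples 6 to 10, and each sample is called a tumour below. The labels do not say whether a sample is 1 tumour or several of 1 animal, nor whether the samples are each from their own animal, so every p-value rests on the spread among these samples, which may be partly technical. No uninvolved colon is among these samples, so no level is compared with healthy tissue.

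Wnt proteins bind Frizzled receptors together with Lrp5 or Lrp6 and stop the destruction complex, built on Apc and Axin, from breaking down beta-catenin, the product of Ctnnb1. Beta-catenin then enters the nucleus and, with the DNA-binding proteins of the TCF/LEF family, switches on target genes, among them inhibitors of the pathway itself. In the colon the pathway is most active at the crypt base and keeps the stem cells there dividing, and tumours of the AOM/DSS model are known for mutations that stabilise beta-catenin.

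TCF/LEF proteins recognise the letters CTTTGA, most often followed by T, and the stretches upstream of 3 members are shown because they bear on how a target is read from its sequence. RefSeq windows on GRCm38.p6, 250 bases before to 50 bases after a start site, were at hand for 20 of the 34 members, 27 windows in all. The motif CTTTGA, searched on both strands, was found in 3 of these 20 members (15%), Sp5, Lef1 and Tnfrsf19, and in 18.2% of all 27025 genes with a window. The longer CTTTGAT, which contains it, was found in 2 of 20 (10%), Sp5 and Tnfrsf19, and in 4.29% of all genes. Below are the 250 bases before the start, 5′ to 3′ along the gene, with each CTTTGA of either strand in capitals. That of Sp5 lies at chr2:70474673-70474922 on the plus strand and holds the motif at positions -204 and -104 relative to the start, the latter followed by T. For Tnfrsf19, the window of 1 of its 2 starts is shown, chr14:61037988-61038237 on the minus strand, with 1 match on the opposite strand (TCAAAG). The window of Axin2, chr11:108920099-108920348 on the plus strand, holds no match, and it is given because Axin2 is the gene against which the others are set further on.
Sp5: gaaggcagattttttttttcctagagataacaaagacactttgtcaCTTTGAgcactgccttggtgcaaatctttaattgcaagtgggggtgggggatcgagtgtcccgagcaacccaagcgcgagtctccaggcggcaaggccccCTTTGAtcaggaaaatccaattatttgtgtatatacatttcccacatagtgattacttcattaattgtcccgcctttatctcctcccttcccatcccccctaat
Tnfrsf19: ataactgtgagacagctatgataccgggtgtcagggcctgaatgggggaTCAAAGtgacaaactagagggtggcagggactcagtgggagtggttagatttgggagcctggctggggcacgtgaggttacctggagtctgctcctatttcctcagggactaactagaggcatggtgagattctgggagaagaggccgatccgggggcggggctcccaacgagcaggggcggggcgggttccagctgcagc
Axin2: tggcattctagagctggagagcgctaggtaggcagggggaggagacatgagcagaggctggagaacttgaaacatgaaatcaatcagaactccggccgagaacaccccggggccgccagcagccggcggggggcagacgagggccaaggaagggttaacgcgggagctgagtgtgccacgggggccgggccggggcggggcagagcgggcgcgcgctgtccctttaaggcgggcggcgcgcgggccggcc

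The array profiles as a whole were close to one another. Medians of the log2 signal lay between 5.84 and 5.93, and arrays correlated across probe sets with r of 0.965 to 0.993. Ucp2 itself, which checks the labels and was named by gene number as Ephb2 was, had log2 signals of 10.84, 11.39, 11.19, 11.55 and 11.52 in WT tumours 1 to 5 and of 9.97, 9.73, 9.73, 9.82 and 9.97 in KO tumours 6 to 10. Every KO tumour lay below every WT tumour, and the signal left in KO tumours was well above background; the place of the probes relative to the deleted part was not given. Its difference was -1.45 ± 0.13 (SE, limma adjusted p = 0.00574). The epithelial markers Epcam, Cdh1, Krt8 and Krt18 were high in all 10 samples, between 10.23 and 11.92. In such bulk samples, fewer cells of a type and less RNA per cell cannot be told apart.

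Most of the 34 genes gave a signal above background. A guide to background was taken from 1088 olfactory receptor genes, as the 95th percentile of their mean signals, 5.14 on the log2 scale. Of the members 32 had a mean above it. The exceptions were Olfm4, a marker of stem cells in the small intestine and in human colon, at 4.51 or below in every tumour, and Tdgf1, the Nodal co-receptor Cripto, at 3.63 to 4.22. The strongest signals belonged to Ctnnb1, at 11.18 to 11.80, and to the secreted Wnt inhibitor gene Wif1, at 10.51 to 11.68. Signals of different probe sets are not on a common scale, so these values order no genes.

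**Figure D1:**
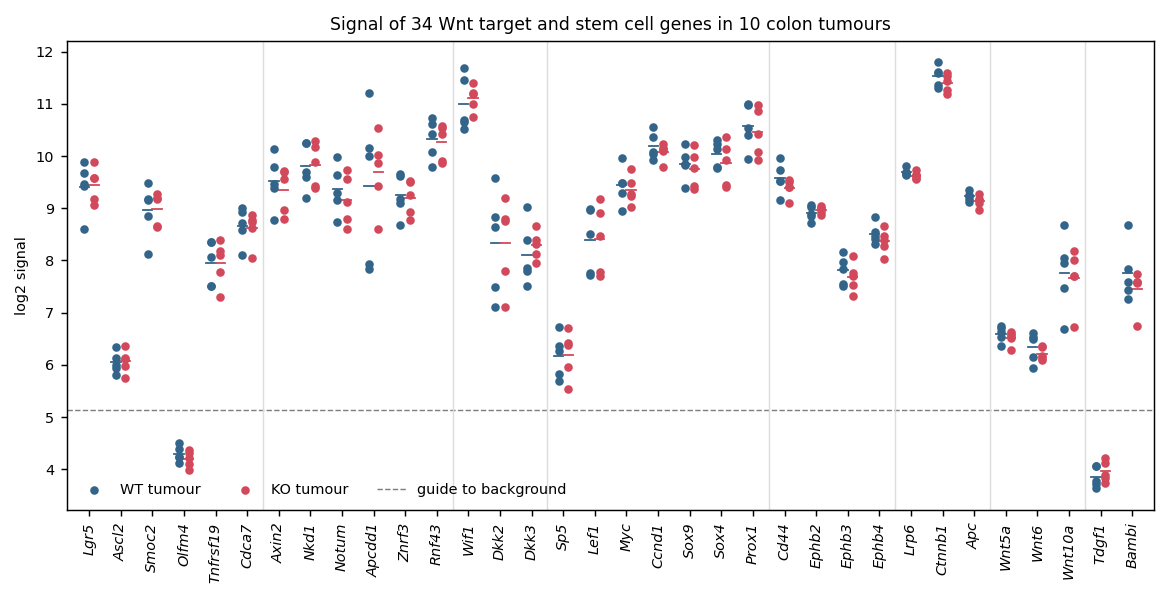
Log2 signal (y axis) of the 34 genes (x axis, in groups by role) in 5 WT and 5 KO tumours; each point is a tumour, short lines are group means and the dashed line is the guide to background at 5.14. The points of both genotypes overlap in every gene, and those of Apcdd1, Dkk2 and Wnt10a are spread the most.

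The first comparison asked whether these genes differ between KO and WT tumours. None of the 34 did by the test used: limma called 0 members at adjusted p under 0.05, where 0.0127% of all genes were called (Ucp2, Kcne3 and Trim12a, all lower in KO), and 0 members at unadjusted p under 0.05, where 4.77% of all genes were (2.22% higher and 2.55% lower in KO). The smallest unadjusted p of a member was 0.212, that of Cd44, and adjusted p-values were 0.911 or more. In 0 members did the genotypes fail to overlap, against 0.837% of all genes. Signals were on average lower in KO in 23 members and higher in 11, with a median difference of -0.07 on the log2 scale against -0.02 over all genes. Members correlated among themselves (median pairwise r of 0.482), so these directions are not independent of one another.

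A p above the threshold does not show that the genotypes have the same level, so the intervals matter. The 95% interval of the difference, not adjusted for the number of genes, lay within 1.5-fold either way for 23 members and within 2-fold for 32. Apcdd1 (-1.14 to 1.66) and Dkk2 (-1.13 to 1.12) were the exceptions. The size of the difference was at most 0.937 times the standard deviation (SD) of tumours within a genotype, and its median over members was 0.337 times, against 0.478 times over all genes.

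**Figure D2:**
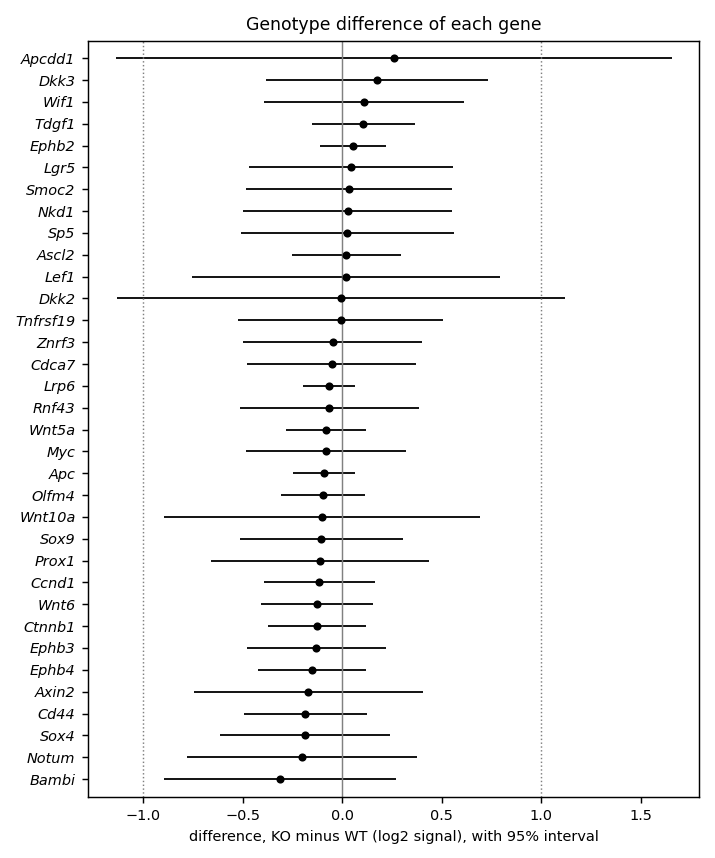
Difference in log2 signal between KO and WT tumours (x axis, KO minus WT) for each of the 34 genes (y axis, ordered by difference), with 95% intervals from limma over 5 tumours a genotype; dotted lines mark a 2-fold change. All 34 intervals contain 0, and those of Apcdd1 and Dkk2 reach beyond 2-fold.

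Feedback inhibitors are targets that damp the pathway. Axin2, a scaffold of the destruction complex, had log2 signals of 8.78, 9.80, 9.47, 9.39 and 10.14 in WT tumours 1 to 5 and of 9.69, 8.79, 8.96, 9.57 and 9.72 in KO tumours 6 to 10. WT tumour 5 was highest and WT tumour 1 and KO tumour 7 were lowest. WT tumours spanned the whole range, while KO tumours reached 9.72 at most, below WT tumours 2 and 5. Its mean was 9.52 ± 0.51 (SD, n = 5) in WT against 9.35 ± 0.44 in KO, for a difference of -0.17 ± 0.26 (SE).

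Nkd1, which encodes an antagonist that binds Dishevelled, had 9.20, 10.25, 9.70, 9.61 and 10.24 in WT and 10.28, 9.43, 9.38, 9.88 and 10.16 in KO. The high and low tumours were nearly those of Axin2, with WT tumours 2 and 5 and KO tumours 6 and 10 above 10. Znrf3 and Rnf43, ubiquitin ligases that remove Frizzled receptors from the cell surface, differed between genotypes by -0.05 ± 0.21 and -0.07 ± 0.20. Notum, an enzyme that inactivates Wnt proteins by cutting off their lipid, had 8.74, 9.99, 9.17, 9.30 and 9.63 in WT and 9.72, 8.78, 8.61, 9.13 and 9.56 in KO, with a difference of -0.20 ± 0.26.

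Apcdd1, a membrane protein that binds Wnt and its receptors, varied more than any other member. Its signals were 7.93, 10.00, 10.15, 7.83 and 11.21 in WT tumours 1 to 5 and 10.53, 8.60, 9.42, 10.01 and 9.86 in KO tumours 6 to 10. WT tumours 1 and 4 were lowest and WT tumour 5 highest, 10.4-fold apart (a range of 3.37 on the log2 scale). The genotype difference of 0.26 ± 0.63 was small beside that, and the SD was 1.48 in WT and 0.72 in KO.

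Among the secreted antagonists, Dkk2, of the Dickkopf family that binds Lrp5 and Lrp6, followed the same tumours. It had 7.49, 8.64, 8.84, 7.11 and 9.59 in WT and 9.19, 7.10, 7.79, 8.80 and 8.75 in KO. The genotype difference was -0.01 ± 0.51, while the lowest and highest of the 10 tumours, KO tumour 7 and WT tumour 5, lay 5.59-fold apart. Wif1, which binds Wnt proteins outside the cell, differed by 0.11 ± 0.23, and Dkk3, a Dickkopf relative that does not act on Lrp6 as the others do, by 0.17 ± 0.25, with WT tumour 2 highest at 9.02.

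Stem cell genes were lowest in different tumours, and none differed between genotypes by the test. Lgr5, the R-spondin receptor that marks crypt base stem cells, had 9.45, 9.68, 9.43, 8.60 and 9.89 in WT and 9.88, 9.06, 9.17, 9.58 and 9.57 in KO. WT tumour 4 was lowest by a wide step, and the means were 9.41 ± 0.49 (SD) in WT and 9.45 ± 0.33 in KO. Smoc2, a secreted calcium-binding protein of the stem cell signature, had 9.15, 9.49, 8.86, 8.13 and 9.17 in WT and 9.19, 8.66, 8.65, 9.21 and 9.26 in KO, so WT tumour 4 was lowest there too.

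Ascl2, the transcription factor that controls the stem cell programme of the crypt, lay near the dim end, at 5.75 to 6.36, and differed by 0.02 ± 0.12. Tnfrsf19, a receptor of the TNF receptor family also called Troy, and Cdca7, a nuclear protein found in stem and dividing cells, differed by -0.01 ± 0.23 and -0.05 ± 0.19. For Olfm4 both means, 4.30 and 4.20, were below the guide to background.

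Of the target transcription factors, Lef1 is itself a partner of beta-catenin. Its signals were 7.77, 8.96, 8.50, 7.71 and 8.99 in WT and 8.91, 7.77, 7.70, 8.47 and 9.18 in KO, falling into low tumours near 7.7 (WT 1 and 4, KO 7 and 8) and others at 8.47 or more, in both genotypes alike. Sp5, a repressor whose promoter stretch is shown above, ranged from 5.53 to 6.72 and differed by 0.03 ± 0.24. Prox1, a homeodomain factor known as a beta-catenin target of colon tumours, ranged from 9.92 to 10.99 (-0.11 ± 0.25). The factors Sox9 (-0.10 ± 0.19) and Sox4 (-0.19 ± 0.19), which mark crypt progenitors, had ranges of 0.85 and 0.96.

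Myc, the growth-driving transcription factor, and Ccnd1, the cyclin D1 gene, followed other tumours. Myc had 9.30, 9.48, 8.94, 9.97 and 9.49 in WT and 9.24, 9.02, 9.26, 9.49 and 9.75 in KO. WT tumour 4, which had the lowest Lgr5, Smoc2 and Apcdd1, had the highest Myc, the highest Ccnd1 (10.55) and the highest Cd44 (9.96). Genotype differences were -0.08 ± 0.18 for Myc and -0.11 ± 0.13 for Ccnd1.

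Target surface proteins had ranges under 1 on the log2 scale. Cd44, a hyaluronan receptor, had 9.52, 9.52, 9.15, 9.96 and 9.72 in WT and 9.40, 9.10, 9.40, 9.55 and 9.50 in KO, a difference of -0.19 ± 0.14. Without WT tumour 3 it was the single member at unadjusted p under 0.05, with an adjusted p of 0.848 by limma. Ephb2, a receptor that sorts cells along the crypt, stayed between 8.72 and 9.07 in all 10 tumours, with a difference of 0.05 ± 0.08. Its relatives Ephb3 and Ephb4 ranged from 7.32 to 8.16 and from 8.03 to 8.83, and differed by -0.13 ± 0.16 and -0.15 ± 0.12.

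Among the core proteins of the pathway, Lrp6 ranged over 0.26 on the log2 scale, the narrowest range of the 34, and Apc over 0.38, with differences of -0.07 ± 0.06 and -0.09 ± 0.07. Without KO tumour 10, which had an Lrp6 of 9.74, each other KO tumour lay below each WT tumour in this gene, and 1.87% of all genes did not overlap in that setting. Ctnnb1 had 11.30, 11.59, 11.36, 11.61 and 11.80 in WT and 11.59, 11.27, 11.18, 11.44 and 11.54 in KO (-0.13 ± 0.11). Its range over the 10 tumours was 0.62, WT tumour 5 was again highest and WT tumour 1 and KO tumours 7 and 8 were lowest.

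Of the Wnt ligands, Wnt10a varied most, with 6.68, 7.96, 8.04, 7.47 and 8.69 in WT and 8.19, 6.73, 7.70, 7.70 and 8.01 in KO. WT tumour 1 and KO tumour 7 were lowest and WT tumour 5 highest, 4.01-fold apart. Wnt5a, a ligand best known for signalling without beta-catenin, and Wnt6 ranged over 0.46 and 0.67 and differed by -0.08 ± 0.09 and -0.13 ± 0.13. Bambi, a decoy receptor of the TGF-beta family and a beta-catenin target, had the greatest negative difference, -0.31 ± 0.27, with 8.68 in WT tumour 5 and 6.75 in KO tumour 7 as its ends. Tdgf1 stayed below the guide to background in every tumour.

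The second question was how far single tumours differ. A range of 1 or more on the log2 scale, at least 2-fold between the lowest and the highest tumour, was found in 16 of 34 members, against 10.5% of all genes and 14.4% of the genes above the guide to background. The median SD over the 10 tumours was 0.35 for members and 0.15 for all genes. Apcdd1, Dkk2, Wnt10a and Lef1 had SDs above those of 99.4%, 99.0%, 97.8% and 97.7% of all genes, and Lrp6, Apc and Ephb2 above those of 6.59%, 22.3% and 22.9%. In 20 members the SD was greater within WT than within KO, and so it was in 61.7% of all genes.

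WT tumour 5 was the highest of the 10 in 16 members, and WT tumour 4 and WT tumour 2 in 6 and 5. KO tumour 7 was the lowest in 11 members, KO tumour 8 in 7, WT tumour 4 in 6 and WT tumour 1 in 5. WT tumour 4 was therefore an end of the order both ways, in different genes. The highest tumour was thus a WT tumour in most members, and KO tumours 10 and 6 were highest in 4 and 2. Among the 3 highest were WT tumours 5 and 2 in 27 and 19 members and KO tumours 6 and 10 in 16 and 14. Low tumours came from both genotypes. Members correlate with one another, so a single tumour is counted many times here, and these counts are no comparison of genotypes. The shares over all genes were not counted.

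**Figure D3:**
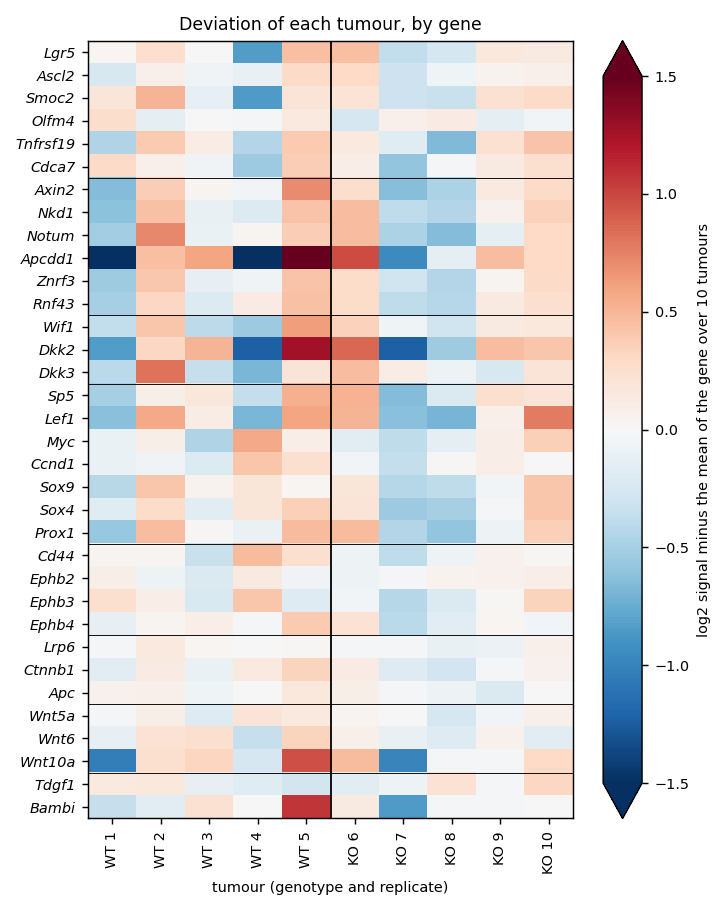
Log2 signal minus the mean of each gene (colour, clipped at 1.5 either way) for the 34 genes (rows, in groups by role) in the 10 tumours (columns, WT left of the line and KO right). WT tumours 2 and 5 and KO tumours 6 and 10 are mostly red, WT tumour 1 and KO tumours 7 and 8 mostly blue, and WT tumour 4 is blue in Lgr5, Smoc2, Apcdd1 and Dkk2 but red in Myc, Ccnd1 and Cd44.

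To ask whether members go up and down together, each of 23667 genes was set against Axin2, a target induced in most tissues where the pathway is active, by Pearson r and Spearman rho over the 10 tumours with a permutation p. Many members followed it. At unadjusted p under 0.05, 18 of 33 other members were called by Pearson r, all of them positive, against 16.3% of all genes (8.88% positive and 7.44% negative). Of genes above the guide to background 23.1% were called (13.3% positive), and 18 of the 31 members there. The median r was 0.77 over members and 0.01 over all genes, and 30 members had a positive r. Above the guide to background the medians were 0.782 over members and 0.088 over genes.

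After adjustment over all genes, 6 members were called, Znrf3, Rnf43, Prox1, Nkd1, Wnt10a and Ascl2, against 1.48% of all genes (0.9% positive and 0.583% negative). With dim genes left out, 12 of 31 members were called, against 4.83% of the genes tested then (2.82% positive). Znrf3 had r = 0.948 (permutation p = 2e-05, adjusted p = 0.0206) and rho = 0.976 (permutation p = 2e-05, adjusted p = 0.0364), and was also the single member called by rho. Rnf43 followed with r = 0.947 (permutation p = 8e-05) and rho = 0.964 (permutation p = 8e-05), and Nkd1 with r = 0.929 (permutation p = 6e-05) and rho = 0.903 (permutation p = 0.00074). This count of 6 was fragile. It was 0 without WT tumour 5, KO tumour 6 or KO tumour 10, 1 without KO tumour 7 or KO tumour 8, 2 without WT tumour 2, WT tumour 3 or KO tumour 9, 4 without WT tumour 1 and 11 without WT tumour 4. The count at unadjusted p was 18 to 21 when single tumours were left out (exact permutation), where 10.9% to 18.1% of all genes were called.

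The relation had to be checked for its ends, because Axin2 left a gap between 3 tumours at 8.96 or below (WT 1, KO 7 and KO 8) and 7 at 9.39 or above. Without the pair farthest from the median, WT tumour 1 and KO tumour 7, Znrf3 kept r = 0.946, Rnf43 0.910, Prox1 0.915 and Nkd1 0.893 (exact permutation p = 7.44e-05 to 0.000868). In that setting 15 members were at unadjusted p under 0.05, where 13.7% of all genes were, and 0 members and 0 genes were called after adjustment. Exact permutation of fewer tumours has fewer orders and so a greater smallest p. A call after adjustment over all genes is then harder to reach whatever the relation. Wnt10a and Ascl2 came down to 0.771 and 0.763 (exact permutation p = 0.035 and 0.0247). Among the 7 tumours above the gap alone, 8 of 33 members were at unadjusted p under 0.05 by exact permutation, where 8.54% of all genes were, with r = 0.882 for Znrf3 and 0.807 for Nkd1. Centring on the genotype means left r at 0.955 for both Znrf3 and Nkd1.

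By role, all 5 other feedback inhibitors were at unadjusted p under 0.05 with Axin2 (r of 0.782 to 0.948), as were 5 of 7 transcription factors and cycle genes, beside 16.3% of all genes and 23.1% of those above the guide to background. Of the secreted antagonists 2 of 3 were, of the stem cell genes 2 of 6 (Ascl2 and Tnfrsf19), and 1 each of the surface proteins (Ephb4), core proteins (Ctnnb1, r = 0.881), ligands (Wnt10a) and TGF-beta modulators (Bambi). Members without such a relation by Pearson r had lower values. Lgr5 had r = 0.595 (permutation p = 0.068) and rho = 0.782 (permutation p = 0.0106), and r = 0.855 without WT tumour 4 (exact permutation p = 0.00379). By rho 20 members were at unadjusted permutation p under 0.05, where 14.2% of all genes were. Lgr5, Smoc2 (rho = 0.697, permutation p = 0.031) and Dkk3 (rho = 0.709, permutation p = 0.0275) came in, and Bambi dropped out. Myc had r = 0.394, Cd44 0.399, Ccnd1 0.469, Ephb3 0.166 and Ephb2 -0.294.

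**Figure D4:**
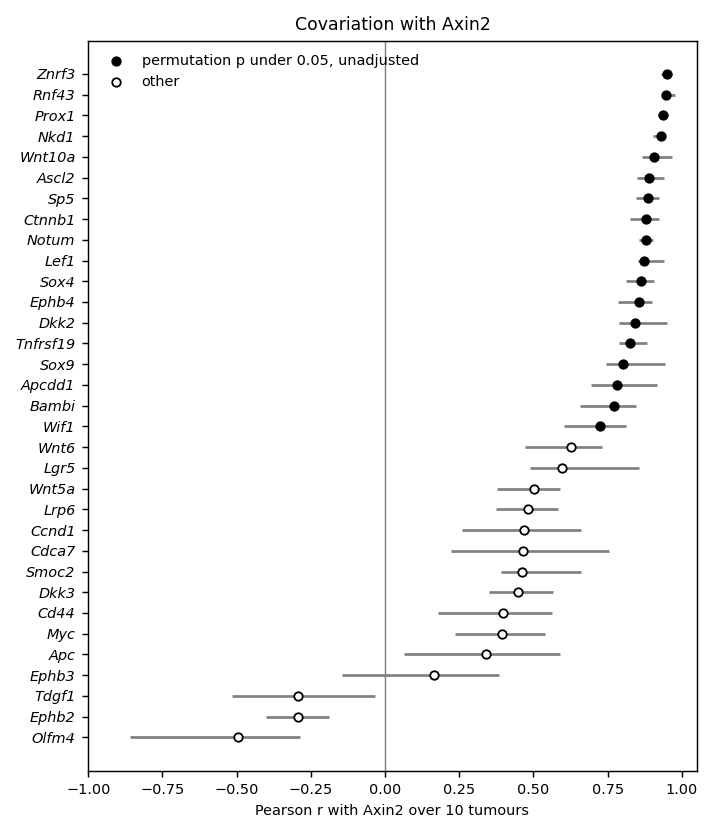
Pearson r of 33 genes with Axin2 over 10 tumours (x axis; genes on the y axis, ordered by r); grey lines span the values with each tumour left out in turn, and filled points are at unadjusted permutation p under 0.05. The 18 filled points run from 0.725 for Wif1 to 0.948 for Znrf3, and the line of Lgr5 reaches from 0.489 to 0.855.

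**Figure D5:**
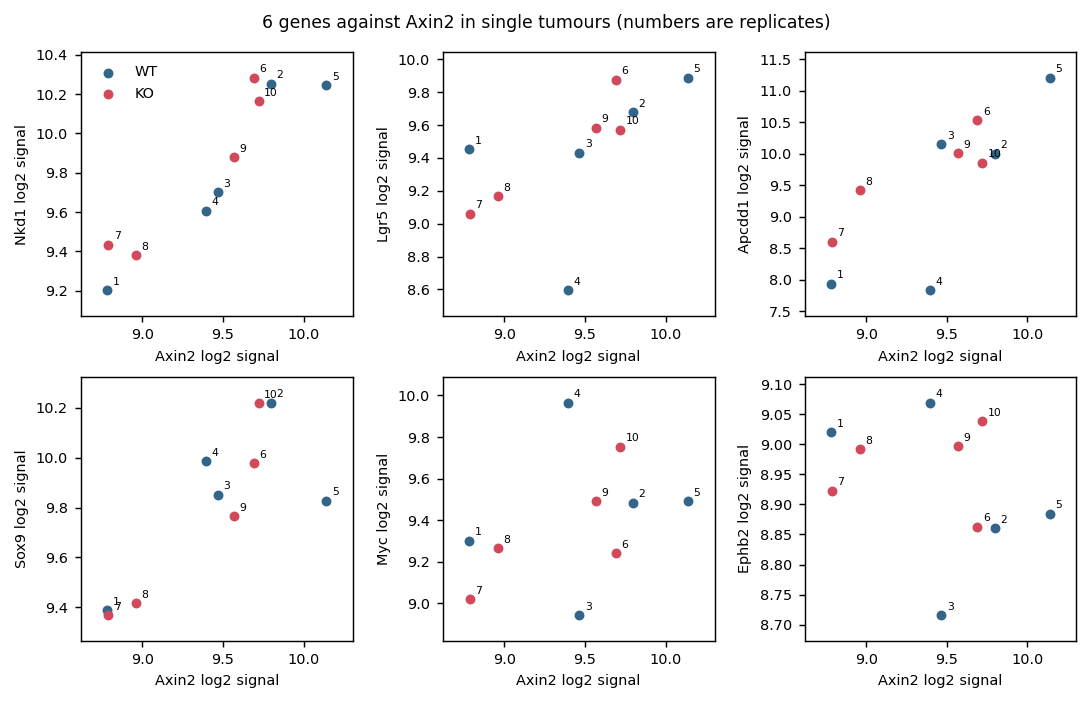
Log2 signal of 6 genes (y axes) against that of Axin2 (x axes) in WT (blue) and KO (red) tumours, with replicate numbers beside the points. Nkd1 goes up with Axin2 across the tumours, WT tumour 4 lies apart in Lgr5, Apcdd1 and Myc, and Ephb2 shows no order.

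Members also went together among themselves. Of their 561 pairs, 456 had a positive r over the 10 tumours, with a median of 0.482, against 0.008 over all pairs of genes and 0.006 over pairs of genes above the guide to background. These values share the same 10 arrays and are given as a description.

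Genes outside the list that were most like Axin2, by highest Pearson r over 10 tumours, were Gpc1, a cell surface proteoglycan (r = 0.986, permutation p = 2e-05), Kif26b, a kinesin (0.975), Fgfrl1, an FGF receptor without a kinase domain (0.974), Bcl2l11, the death-promoting protein Bim (0.970), Ago1, an Argonaute protein (0.968), and Rcc2, a regulator of small GTPases (0.967). Their rho lay between 0.842 and 1. Gpc1 spanned 6.99 to 8.39 and had r = 0.971 without the pair farthest from the median. Lowest r belonged to Peli1, a ubiquitin ligase of immune signalling (-0.977), Hgfac, a protease that activates hepatocyte growth factor (-0.964), Sst, the hormone somatostatin (-0.960), Sh2d4a, an adaptor protein (-0.959), Grem1, a secreted BMP antagonist (-0.950), and Agpat4, an enzyme of phospholipid synthesis (-0.943). Peli1 and Sst spanned narrow ranges, 9.02 to 9.44 and 5.68 to 6.11, and Grem1 a wider one, 8.52 to 9.69.

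The rest of the pathway was taken from a list of 78 further genes, all measured, 58 of them above the guide to background. None was called between genotypes at adjusted p under 0.05 by limma, and 2 were at unadjusted p under 0.05, both higher in KO, where 2.22% of all genes were higher. A count of 2 of 78 is near that share. Frzb and Sfrp1 are secreted Frizzled-related proteins that bind Wnt. Frzb had means of 6.17 ± 0.24 (SD) and 6.59 ± 0.34, a difference of 0.42 ± 0.16. Sfrp1 had 7.67, 7.38, 7.52, 8.11 and 7.05 in WT and 7.57, 8.75, 9.12, 8.21 and 7.67 in KO, a difference of 0.72 ± 0.30 (SE). Its values overlap between the genotypes, and KO tumours 7 and 8, which were low in Axin2, were highest. The count of 2 was 0 without WT tumour 3, WT tumour 5, KO tumour 7 or KO tumour 8, 1 without KO tumour 9, and 6, 7 and 8 without KO tumour 10, KO tumour 6 and WT tumour 4. It was 0 with the score of 12 fibroblast markers as covariate, whose mean log2 signal lay between 8.55 and 8.87 in WT and between 8.70 and 8.94 in KO. The mean over 8 macrophage markers, all above the guide to background, lay between 7.73 and 7.94 in WT and between 8.02 and 8.45 in KO. The genotypes did not overlap there, whereas they did in each other marker list looked at. For 8 smooth muscle markers the mean lay between 7.00 and 7.88 in WT and between 7.09 and 8.52 in KO. The part of macrophage and smooth muscle cells in the values of Frzb and Sfrp1 was not tested.

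Next by p were Wnt9b, a ligand (-0.17 ± 0.08), Tnks2, a tankyrase that marks Axin for breakdown (-0.18 ± 0.09), Ryk, a Wnt receptor (-0.13 ± 0.07), Csnk1a1, a kinase of the destruction complex (-0.15 ± 0.08), Tcf7l2, the main TCF of the intestine (0.13 ± 0.07), and Ror2, a receptor of Wnt5a (-0.16 ± 0.09). Set against Axin2, 29 of the 78 were at unadjusted permutation p under 0.05, 21 positive and 8 negative, where 16.3% of all genes were (8.88% positive and 7.44% negative, or 13.3% and 9.72% of genes above the guide to background). After adjustment over all genes 7 were called, against 1.48% of all genes. These 7, named after their values were seen, were Tcf7, itself a TCF and a target and named by gene number (r = 0.967), the kinases Csnk1e (0.948) and Csnk1d (0.906), Kremen1, a receptor of Dickkopf proteins (0.926), Lrp5 (0.909), Tiam1, an exchange factor for Rac (0.905), and the receptor Fzd3 (0.794). Fzd3 was near the guide to background, with a mean of 5.27 and signals from 4.87 to 6.41, the highest in WT tumour 5 (rho = 0.867). In the group of signal relay and destruction complex genes 9 of 14 were positive and 0 negative at unadjusted p under 0.05, and all 14 were above the guide to background. The list of 14 other antagonists includes Tiam1, which is an exchange factor rather than an antagonist. In this list 2 genes were positive, Kremen1 and Tiam1, and 4 negative, against the same 8.88% and 7.44% of all genes. The negative genes were Sfrp1 (-0.721), Sfrp2 (-0.688), Frzb (-0.656) and Kremen2 (-0.722).

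Marker lists were also set against Axin2 between tumours, in 11 relations added after the values were seen, with p adjusted over the 11 lists. Absorptive colonocyte and goblet cell markers moved against Axin2. The mean log2 signal of 10 absorptive colonocyte markers, among them the carbonic anhydrases Car1 and Car4 and the chloride exchanger Slc26a3, lay between 6.55 and 9.75 in WT and between 7.87 and 9.87 in KO. It had r = -0.762 with Axin2 (permutation p = 0.00607, adjusted p = 0.0334), rho = -0.818 (permutation p = 0.00591), and r = -0.741 without the pair farthest from the median. WT tumour 5, highest in Axin2, was lowest there, as it was in Car4 (5.24) and Slc26a3 (4.86). Car1 went otherwise, with 10.84 in WT tumour 5 and its lowest signal, 10.47, in KO tumour 9. The 8 goblet cell markers, led by the mucin gene Muc2, lay between 9.73 and 11.24 in WT and between 10.59 and 11.24 in KO, with r = -0.823 (permutation p = 0.00037, adjusted p = 0.00407), rho = -0.830 (permutation p = 0.00468), and -0.770 without that pair.

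The other lists did not pass after adjustment by Pearson r, although the T cell list did by rho (-0.782, permutation p = 0.0106, adjusted p = 0.039). The 12 general epithelial markers lay between 10.01 and 10.34 in WT and between 10.17 and 10.30 in KO (r = -0.686, adjusted p = 0.0767), and 8 T cell markers between 5.66 and 6.23 and between 5.88 and 6.63 (r = -0.698, adjusted p = 0.0767). The 12 fibroblast markers had r = -0.0507 and 10 proliferation markers r = 0.260 (adjusted p = 0.890 and 0.568). The remaining r were -0.643 for smooth muscle, 0.480 for Paneth-like and deep secretory cells, -0.465 for B and plasma cells, -0.359 for macrophages and -0.115 for endothelium (adjusted p = 0.104 to 0.824). Some of these values depended on the pair farthest from the median. Without it r was -0.878 for T cells and -0.836 for smooth muscle (exact permutation p = 0.00372 and 0.00347, unadjusted). For fibroblasts it was -0.683 (exact permutation p = 0.0599). It was also -0.683 for B and plasma cells, -0.581 for epithelium, -0.558 for endothelium and -0.548 for macrophages. Proliferation and Paneth-like lists had 0.565 and 0.436. Of all these lists each measured marker was above the guide to background except 2 T cell markers and 1 fibroblast marker. With the absorptive colonocyte score taken out of Axin2 and of every gene, 16 of 33 members were at unadjusted p under 0.05, where 8.42% of all genes were. With the epithelium score taken out 18 were, where 14.3% of all genes were. These were not the same members as without a score taken out, since Apcdd1, Wif1 and Bambi dropped out both times. Myc (r = 0.740), Cd44 (0.666) and Wnt5a (0.653) came in with the epithelium score taken out. Olfm4, below the guide to background, came in with the colonocyte score taken out, with a negative r (-0.823). In both settings 0 members and 0 genes were called after adjustment.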

How the data were processed

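RNA of 10 mouse colon tumour samples, 5 WT and 5 KO, was measured on Affymetrix arrays, 1 array a sample, from 240 ng of total RNA per the labels' protocols. Values deposited by the authors are log2 signals, 1 for each probe set on each array. The submitters' processing notes name RMA, a method that subtracts background, brings arrays to 1 distribution and combines probes, and Partek, without a version. The log base was taken as 2 from the values. Such normalization hides a shift of all genes together and dim signals are compressed. The number of arrays limits the precision.

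Of 23747 probe sets, the platform annotation named 23111 and 557 more were named by gene number through the RefSeq table of GRCm38.p6, so 23668 genes were tested and 79 were left out. The members and lists were chosen with earlier results of these data known. All members are named, and of 78 further pathway genes the 8 with the smallest p, plus 9 named after their r with Axin2 was seen (the 7 called, and Sfrp2 and Kremen2), and 6 other genes with the highest and 6 with the lowest r with Axin2.

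KO was compared with WT by lmFit and eBayes of limma 3.58.1 in R 4.3.3, without covariates, with Benjamini-Hochberg adjustment over all named genes. Correlations with Axin2 used 100000 resamples, or all permutations below 10 tumours, two-sided, with the same adjustment (numpy 2.4.6). A list's score is the mean of its genes' deviations from their means. Both tests were checked on simulated data. Alternatives left out each array, normalized or centred again, left out dim genes, changed the variance model, weighted arrays, or added marker scores. No 2 arrays held identical values. Coordinates are those of RefSeq on GRCm38.p6.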

Additional observations from a re-analysis of the deposited data

Results flagged for a closer look

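In 68 groups of 5 values (34 genes in WT and in KO), a tumour stood apart in 2, by a gap to its nearest neighbour of more than 0.71 of the range of its group. Chance gives such a gap in about 1 of 20 groups. Lrp6 was 9.81 in WT tumour 2, above the 9.69 of the next WT tumour (0.737 of the range). Bambi was 6.75 in KO tumour 7, below the 7.57 of the next KO tumour (0.832 of the range). KO tumour 7 was also the lowest tumour in 11 of the 34 genes.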

How the results depend on the processing

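The array number and the absence of uninvolved colon limit what can be seen, and 2 members were below the guide to background. No paired analysis was possible because WT and KO samples share no replicate number. The number of members called between genotypes was 0 in each alternative run. That at unadjusted p under 0.05 was 0 to 1 with single tumours left out and 0 otherwise, and that of members whose genotypes do not overlap was 0 to 1. Members with a range of 1 or more numbered 13 to 16 with single tumours left out. Further pathway genes at unadjusted p under 0.05 numbered 2, or 0 to 8 with single tumours left out, 4 after quantile normalization, 1 with array weights and 0 with the fibroblast score as covariate.

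The 6 members called with Axin2 became 0 to 11 with single tumours left out, 1 by Spearman rho, 12 without dim genes or with the fibroblast score taken out, 11 with the proliferation score taken out, and 0 without the pair farthest from the median Axin2, in the 7 tumours above the gap, or with the epithelium or absorptive colonocyte score taken out. Exact permutation has a smallest p that grows as tumours are left out. The 0 in the 7 tumours, and less so that without the pair, therefore cannot show that the relation is lost. The count of 18 at unadjusted p became 18 to 21 with single tumours left out and 8 in the 7 tumours above the gap. The cause was not tested. The settings that take out scores or use the 7 tumours were chosen after seeing the data.

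Some differences, none past the threshold in the main comparison, changed sign. With array weights they were 0.000125 in Tnfrsf19, 0.00757 in Cdca7 and 0.156 in Dkk2. With the epithelium score as covariate they were 0.0899 in Tnfrsf19, 0.0324 in Znrf3, 0.274 in Dkk2 and 0.104 in Wnt10a. With the fibroblast score they were 0.0228 in Tnfrsf19, 0.0661 in Cdca7 and 0.0800 in Dkk2, and after quantile normalization -0.00955 in Nkd1 and -0.00169 in Lef1. Single tumours left out gave -0.16 to 0.16 in Lgr5, -0.0519 to 0.101 in Ascl2, -0.18 to 0.17 in Smoc2, -0.12 to 0.16 in Tnfrsf19, -0.20 to 0.0868 in Cdca7, -0.12 to 0.14 in Nkd1, -0.14 to 0.70 in Apcdd1, -0.19 to 0.0549 in Znrf3, -0.20 to 0.0355 in Rnf43, -0.012 to 0.28 in Wif1, -0.31 to 0.31 in Dkk2, -0.10 to 0.19 in Sp5, -0.17 to 0.20 in Lef1, -0.21 to 0.0496 in Myc, -0.27 to 0.0213 in Prox1 and -0.37 to 0.13 in Wnt10a. Of the r with Axin2, those of Olfm4, Myc and Ephb3 became 0.391, -0.0237 and -0.376 in the 7 tumours above the gap, that of Ephb2 0.291 with the epithelium score taken out and that of Apc -0.00375 with the absorptive colonocyte score taken out. With single tumours left out, Ephb3 ranged from -0.145 to 0.385.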
